A study of Caenorhabditis elegans with 2 samples.

Results

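Divergent gene pairs are neighbouring genes transcribed away from each other from one stretch of DNA between their starts. The regions described here are autosomal RBR-2-GFP peaks in such stretches. A peak was a member when its summit had the 5′ end of a minus-strand protein-coding gene to its left and that of a plus-strand protein-coding gene to its right, each within 500 bp, so that it lay upstream of both. Of 3442 peaks in the optimal list, 335 were members, which is 12.2% of the 2746 autosomal peaks. A further 813 autosomal peaks lay upstream of one gene only, and 1463 were distal, with no 5′ end of a protein-coding gene within 500 bp. The samples were whole hermaphrodites of Caenorhabditis elegans strain OP195 at the L4 larval stage, 56 hours after synchronisation as starved L1 larvae, all of which carried a C-terminally GFP-FLAG-tagged RBR-2. There were 2 biological replicates of this 1 group, and no other genotype, stage or treatment. One label names an antibody to GFP and another an antibody to rbr-2, and which of these was used is not settled here. All tissues of the animal were mixed, the labels do not give the sequence that drives the tagged gene, and peak lists carry no marker by which the labelled material could be checked.

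RBR-2 belongs to the KDM5 family of demethylases, which remove methyl groups from lysine 4 of histone H3, a mark of active promoters. In the compact worm genome many genes start close to an oppositely oriented neighbour, so that a single promoter region can serve both. A ChIP-seq peak there cannot be assigned to either gene. Worm promoters often carry runs of T on the coding strand ahead of the gene. In a divergent region these appear, read along the plus strand, as A runs on the side of the minus-strand gene and T runs on the side of the plus-strand gene.

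The RefSeq sequence around 7 summits is shown first, because the base pattern described further on can be read in most of them. The first 4 are among the 5 strongest members outside the first chromosome with over 100 bp to both starts and a summit outside noncoding genes, and the others are the strongest such member of each gene list that supplied both genes. Each line gives 100 bases of ce11 on either side of the summit base, 5′ to 3′ on the plus strand, with runs of at least 4 adenines or 4 thymines in capitals. All lie between the annotated 5′ ends of the pair.
rpl-20/Y17G9B.5, chrIV:4749968-4750168: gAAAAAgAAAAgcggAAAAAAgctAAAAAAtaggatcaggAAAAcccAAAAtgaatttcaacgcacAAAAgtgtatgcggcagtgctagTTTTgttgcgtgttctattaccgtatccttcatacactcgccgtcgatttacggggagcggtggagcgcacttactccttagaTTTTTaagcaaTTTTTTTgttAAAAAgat
rpl-15/K11H12.8, chrIV:654818-655018: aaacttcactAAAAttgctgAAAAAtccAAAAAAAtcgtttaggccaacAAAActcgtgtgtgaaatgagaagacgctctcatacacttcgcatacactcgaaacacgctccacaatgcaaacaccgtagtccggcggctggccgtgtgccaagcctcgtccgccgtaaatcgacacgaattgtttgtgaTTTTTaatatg
drr-2/set-16, chrIII:13643631-13643831: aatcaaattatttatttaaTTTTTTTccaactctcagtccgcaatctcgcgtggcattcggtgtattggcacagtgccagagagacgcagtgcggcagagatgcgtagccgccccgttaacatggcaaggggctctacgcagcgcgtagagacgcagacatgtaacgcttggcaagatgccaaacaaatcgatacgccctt
cct-8/Y55F3AR.2, chrIV:1094259-1094459: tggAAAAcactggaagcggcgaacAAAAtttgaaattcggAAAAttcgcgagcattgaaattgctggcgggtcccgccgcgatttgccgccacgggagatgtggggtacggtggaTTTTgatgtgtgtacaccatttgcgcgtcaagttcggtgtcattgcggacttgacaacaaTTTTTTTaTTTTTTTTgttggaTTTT
rsp-2/rsp-1, chrII:11453111-11453311: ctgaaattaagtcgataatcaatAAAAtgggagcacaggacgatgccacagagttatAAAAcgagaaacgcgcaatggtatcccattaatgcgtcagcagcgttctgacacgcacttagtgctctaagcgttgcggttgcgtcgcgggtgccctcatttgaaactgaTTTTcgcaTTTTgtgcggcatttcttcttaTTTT
rps-14/rpl-36, chrIII:7179751-7179951: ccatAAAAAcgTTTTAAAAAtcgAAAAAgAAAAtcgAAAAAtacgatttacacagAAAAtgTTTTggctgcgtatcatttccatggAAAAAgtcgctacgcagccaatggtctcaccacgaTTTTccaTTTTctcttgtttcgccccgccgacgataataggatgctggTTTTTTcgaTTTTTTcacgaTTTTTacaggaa
his-61/his-62, chrIV:7486291-7486491: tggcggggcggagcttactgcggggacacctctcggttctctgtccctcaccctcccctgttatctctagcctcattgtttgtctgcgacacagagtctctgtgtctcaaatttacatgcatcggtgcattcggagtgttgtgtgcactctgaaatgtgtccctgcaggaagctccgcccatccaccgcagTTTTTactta

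In rpl-20/Y17G9B.5 the A runs left of the summit added up to 33 bases and the T runs right of it to 12. The same sums were 12 and 23 in cct-8/Y55F3AR.2 and 33 and 25 in rps-14/rpl-36. The order was less marked in rpl-15/K11H12.8 (20 and 5) and rsp-2/rsp-1 (8 and 12). It was missing in drr-2/set-16, which had neither kind of run on those sides and 7 bases of T run on the left, and almost missing in his-61/his-62 (0 and 5).

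The first question was how many divergent pairs carried a peak. The autosomes held 1664 pairs of neighbouring divergent 5′ ends at most 1000 bp apart, and 332 of them (20%) had an optimal summit between the starts within 500 bp of both. In 3 pairs there were 2 such summits: tim-1/Y75B8A.23, czw-1/F20D12.12 and dnj-29/ndua-2. Of the 13914 other autosomal protein-coding genes, 715 (5.14%) had a summit 1 to 500 bp upstream. The strongest 3442 regions of replicate 1 alone gave 19.5% of pairs and 5.07% of the other genes. Those of replicate 2 gave 18.7% and 4.84%, so the share was higher for pairs in each replicate. The spread between replicates shows how alike their lists are, and not how pairs or genes vary. Per kb of window in which a summit could count, 0.713 pairs and 0.103 other starts had a summit. The other genes include those that follow another gene in an operon, whose number was not counted. Pairs, genes and peaks are not replicates of a condition, so no p-value is given for these shares or for any comparison between sets of regions below.

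Pairs with 5′ ends over 200 and up to 400 bp apart most often held a summit (138 of 451, 30.6%), followed by those up to 600 bp apart (109 of 379, 28.8%). Closer pairs did so less often (30 of 241, 12.4%). The share fell to 15.4% at 600 to 800 bp and to 3 of 255 pairs (1.18%) at 800 to 1000 bp. Part of this follows from the rule, since a summit within 500 bp of both ends has ever less room in gaps over 500 bp. Per kb of permitted sequence, the values in order of gap were 0.938, 1.03, 0.642, 0.5003 and 0.112 pairs. Any pooled region, optimal peaks and background included, lay in 49.9% of pairs over 200 and up to 400 bp apart and in 21.6% of the closer pairs.

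**Figure D1:**
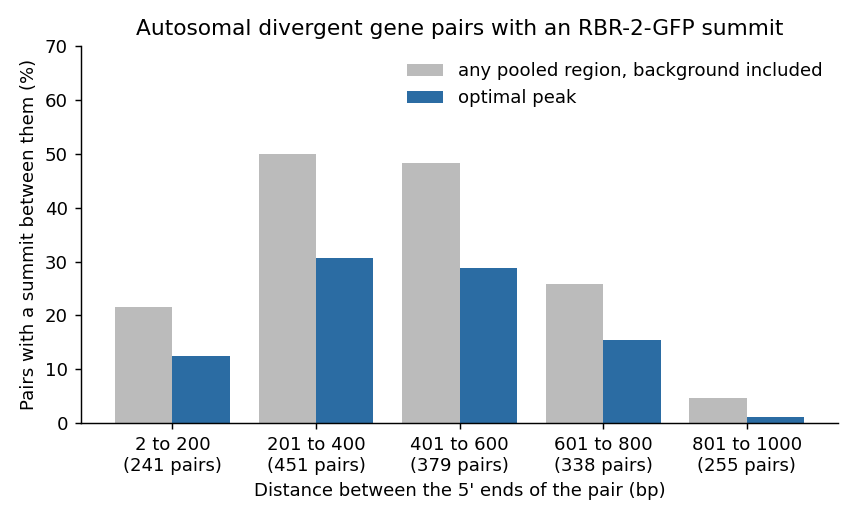
Share of autosomal divergent pairs (y axis, percent) with a summit between the starts, by the distance between the 5′ ends (x axis, bp). Grey bars count any pooled region and blue bars optimal peaks; the blue bars are highest at 200 to 400 bp (30.6%) and 400 to 600 bp (28.8%) and lowest at 800 to 1000 bp (1.18%).

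The chromosomes differed in how many of their pairs held a summit. The share was 26.6% on chromosome III (77 of 290) and 25.7% on chromosome I (82 of 319), then 20.5% on IV (63 of 308), 17.3% on II (56 of 324) and 12.8% on V (54 of 423). On V a pooled region of any strength was also least frequent, in 20.8% of pairs against 48.3% on III. Where a pooled region was present, the part that reached the optimal list lay between 55.0% (III) and 64.3% (IV), with V at 61.4%. On the X chromosome 16 of 80 pairs (20%) held an optimal summit, close to the autosomal share, although only 2.36% of the 677 X peaks lay in such pairs.

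Signal is the strength given to a region by the authors' peak caller, and it is comparable only within a list. Members had a median signal of 129 (quartiles 88.1 and 189, range 65.3 to 1414), against 123 for peaks upstream of one gene and 105 for distal peaks. In the 302 members without a cytosolic ribosomal protein gene the median was 123.7, close to the 123.2 of one-gene peaks. The ratio of members to one-gene peaks was 1.05, and it was 1.14 in replicate 1 and 1.10 in replicate 2. This order was not kept with a window of 250 bp, where the ratio was 0.988. With the autosomal peaks in 4 equal groups by signal, members made up 15.2% of the strongest group and 13.8%, 10.8% and 9.02% of the following ones. One-gene peaks made up 32.2%, 34.8%, 28.0% and 23.4% of the same groups, so they too were scarcer in the weaker groups. The signal changed little with the gap, with medians of 118, 127, 138 and 133 for gaps of up to 200, up to 400, up to 600 and over 600 bp.

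Both replicates recorded the members. A region with a summit within 200 bp was found for 334 members in replicate 1 and for all 335 in replicate 2. The member without one in replicate 1 was rde-4/cox-14, with a signal of 93.9 in replicate 2. In replicate 1 the members' signal had a median of 63.3 (range 14.6 to 626) and in replicate 2 a median of 65.7 (range 18.4 to 790). Among the strongest 3442 regions were 305 members in replicate 1, 299 in replicate 2 and 274 (81.8%) in both. The optimal list was made from these replicates, so the shares describe the list and are no independent check. The largest differences in rank were at F10G7.9/tsn-1 (rank 2767 in replicate 1 and 10591 in replicate 2), pvf-1/Y39A3CL.7 (1706 and 9482), the weaker summits of dnj-29/ndua-2 (2833 and 9484) and czw-1/F20D12.12 (2249 and 8810), and gcna-1/eftu-2 (12236 and 5728). All of these had a pooled signal between 65.4 and 71.6, near the lower end of the list.

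**Figure D2:**
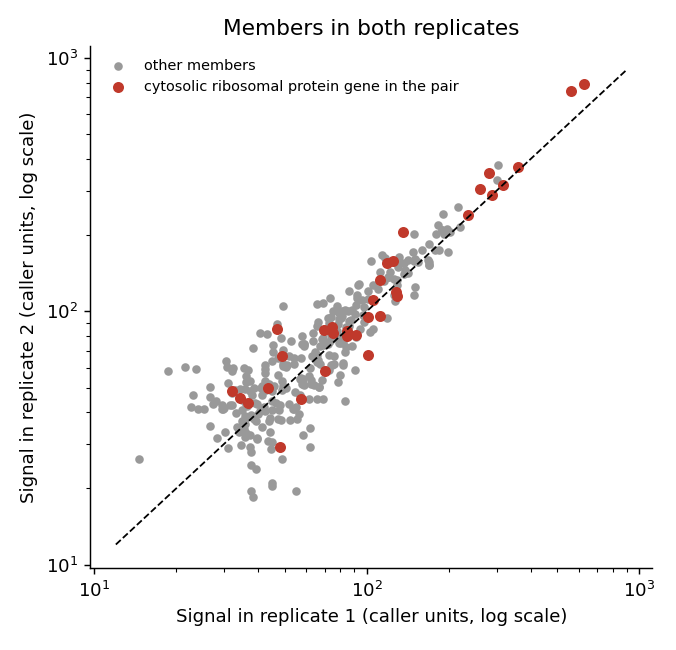
Signal of each member in replicate 1 (x axis) and replicate 2 (y axis), in the caller's units on log scales, for the 334 members with a region in both; the dashed line marks equal values. Red points are pairs with a cytosolic ribosomal protein gene, which include the strongest members, at 626 and 564 in replicate 1 and 790 and 744 in replicate 2.

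Genes for ribosomal proteins, which build the translation machinery, led the members by signal. The strongest lay between rpl-20, a gene of the large ribosomal subunit, and Y17G9B.5 (chrIV:4749854-4750266), with a signal of 626 in replicate 1, 790 in replicate 2 and 1414 pooled. The next was between rpl-15, also of the large subunit, and K11H12.8 (564, 744 and 1302). Both were stronger than every other member in each replicate. A cytosolic ribosomal protein gene was in 33 of all 335 members and in 8 of the 20 strongest. The others of these 8 were rps-19/hsr-9 (pooled 731), rpl-7A/set-21 (633), rpl-12/lin-54 (628), ska-3/rps-12 (586), rps-20/ekl-4 (560) and rps-15/F36A2.9 (472).

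The partners in several of these strong regions encode chromatin and chromosome proteins. The pair drr-2/set-16 (304 in replicate 1, 378 in replicate 2, 681 pooled) joined a homolog of translation factor eIF4H with an MLL-type H3K4 methyltransferase, and its summit lay 161 and 185 bp from their starts. The gene lin-54 encodes the DNA-binding subunit of the DREAM complex, hsr-9 a homolog of the DNA damage protein 53BP1, and ekl-4 a homolog of DMAP1. The pair lin-53/nra-2 (189, 210 and 395) holds the gene of a histone-binding WD40 protein, and F29B9.11/jmjd-1.2 (188, 209 and 400.7) that of a histone demethylase. In npp-3/top-2 (203, 206 and 405) a nuclear pore gene faced the gene of topoisomerase II. These partners belong to no list used here, apart from npp-3, and were picked out after their rank was seen. How often such genes occur over all members or all pairs was not counted. Whether they are more common among the strong members is therefore unknown.

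The remaining strong members included the chaperonin genes cct-8 (with Y55F3AR.2, 217, 258 and 478) and cct-1 (with mig-5, a Dishevelled homolog, 220, 215 and 440). In sec-61.B/trap-3 (301, 329 and 631) both genes encode parts of the protein translocation site of the endoplasmic reticulum; the summit lay inside the annotated noncoding RNA Y38F2AR.17. The pair hsp-110/rpn-3 (182, 219 and 400) joined a heat-shock protein gene and a proteasome lid gene. The list of 20 was completed by gpap-1/scpr-1 (437), ndk-1/F25H2.6 (408), gmps-1/cap-2 (393) and ctf-4/eef-1G (384), where gmps-1 encodes GMP synthetase, cap-2 an actin capping protein subunit and eef-1G a translation elongation factor subunit.

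Pairs with a gene of the core machinery held a summit more often than the 20% of all pairs. Of 44 pairs with a cytosolic ribosomal protein gene on either side, 33 (75%) had one. It was 12 of 24 for chaperones, 10 of 20 each for translation factors and proteasome genes, and 11 of 22 for splicing genes. The share was 9 of 19 for listed genes of respiration and ATP synthase, 7 of 15 for RNA polymerase II and its cofactors, and 8 of 20 for nuclear pore and transport genes. Lists go by symbol prefix, and that of respiration left out members such as rbc-2/ndua-8 and jmjd-4/mev-1. Vesicle and secretory genes (10 of 30, 33.3%), mitochondrial ribosomal proteins (8 of 25, 32%) and tRNA synthetases (3 of 11) were nearer to the share of all pairs. A pooled region of any strength lay in 56.7%, 76% and 72.7% of these pairs in the same order, against 33.6% of all pairs. An optimal summit lay in 203 of the 1240 pairs (16.4%) without any listed gene. These lists were chosen with earlier results of the same data known, and list membership was not tested.

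Several lists stood at or under the share of all pairs. Of 109 pairs with a chemoreceptor gene, 3 (2.75%) had a summit, among them rsr-1/sri-5 (pooled signal 268) and clic-1/srr-10 (118). Only 5 of these pairs held a pooled region of any strength. Neither the 15 pairs with a nuclear hormone receptor gene nor the 4 with a ceh homeobox gene had an optimal summit, and 2 and 1 of them held a weaker pooled region. Collagen genes had 3 of 17, namely col-38/rpl-5 (248), col-71/Y49F6B.2 (191) and col-2/ndc-80 (105), and the first of these faced a ribosomal protein gene. Cell cycle genes had 2 of 14, cdc-6/acin-1 (230) and hxk-2/cdk-9 (157), and germline genes 1 of 6, Y53C12B.1/nos-3 (107). A pooled region of any strength lay in 8 of the 14 cell cycle pairs (57.1%), against 33.6% of all pairs. For germline genes it was 2 of 6 and for collagen genes 3 of 17.

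**Figure D3:**
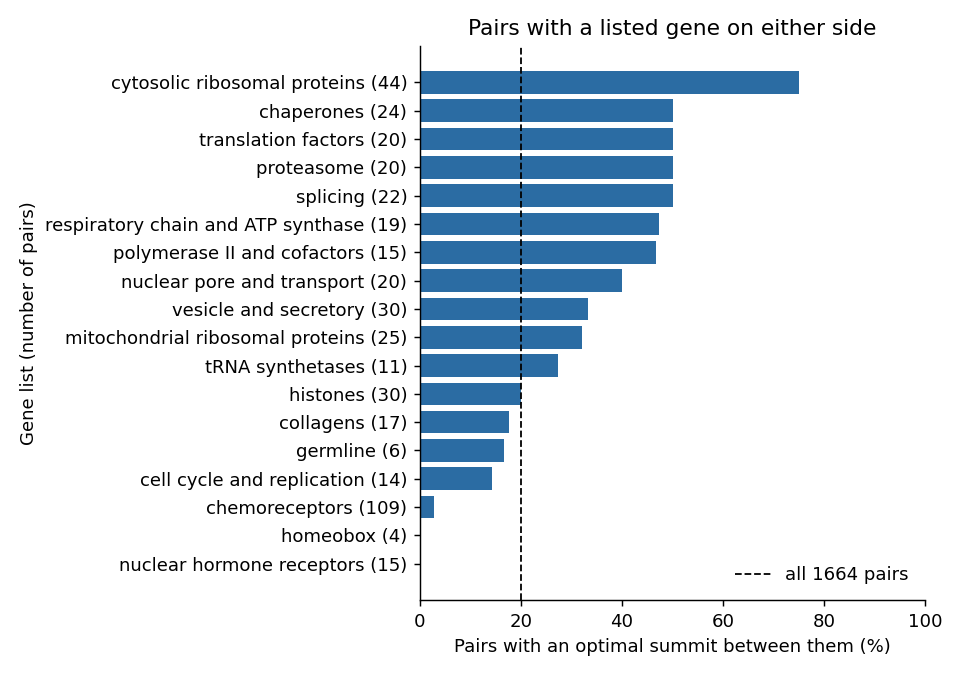
Share of autosomal divergent pairs with an optimal summit (x axis, percent) for pairs with a gene of each list on either side, with the number of pairs in brackets. The dashed line is the 20% of all 1664 pairs; cytosolic ribosomal proteins stand highest (75%), chemoreceptors at 2.75%, and nuclear hormone receptors and homeobox genes at 0.

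Histone genes are a special case, since replication-dependent histone genes stand in divergent pairs, and all 30 pairs with a his gene had one on both sides. A summit lay in 6 of them (20%), close to the share of all pairs. They were his-67/his-68 (114 in replicate 1, 166 in replicate 2, 272 pooled), his-61/his-62 (80.9, 95.4 and 178), his-31/his-32 (49.4, 105 and 155), his-60/his-59 (40.6, 82.1 and 123), his-35/his-41 (50.4, 49.97 and 95.8) and his-4/his-3 (52.1, 37.3 and 89.7). The his-31/his-32 region ranked 1981 in the list of replicate 1 and 712 in that of replicate 2, and his-60/his-59 ranked 2568 and 1090. Near-identical histone copies make the placement of reads uncertain, and how the authors treated reads with several matches is not given in the sources used here.

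Other pairs with both genes in one list were few. All 3 pairs of cytosolic ribosomal protein genes held a summit: rps-10/rpl-24.1 (119, 156 and 270), rpl-39/rps-30 (106, 111 and 217) and rps-14/rpl-36 (112, 95.6 and 207). Annotated noncoding RNA genes covered the summit at the first and second of these. Both pairs of splicing genes held one: rsp-2/rsp-1, which encode SR proteins (178, 175 and 357), and snr-3/rsp-5 (36.6, 58.5 and 95.0). None of the 20 pairs of chemoreceptor genes and none of the 3 pairs of chaperone genes did. Members that joined genes of different lists included rpl-28/mrpl-49 (173), pas-4/rpb-3 (145), rpl-36.A/nuo-1 (127), npp-25/mrps-10 (115) and eif-1/vps-24 (66.7).

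Further list members at lower signal covered the translation factors eef-1A.1 (with rfc-4, 352) and eef-2 (with clsp-1, 335), the nuclear transport genes npp-14 (with cel-1, an mRNA capping enzyme gene, 324) and imb-1 (with mfsd-13.1, 157), and prp-40 (with clu-1, 301) and snr-1 (with snx-13, 158) of the splicing list. The retinoblastoma gene lin-35 faced vps-51 (329), and the vacuolar ATPase gene vha-8 faced C17H12.2 (283). Genes of ATP synthase were found in atp-3/F27C1.2 (214) and C34E10.10/atp-2 (187). Mitochondrial ribosomal protein genes appeared in mrps-7/Y57G11C.3 (232) and vbh-1/mrpl-17 (182), and proteasome genes in rpn-9/T06D8.9 (161) and pbs-1/K08D12.3 (156). Mediator and Integrator genes were in ift-43/mdt-26 (182), where the summit was 1 bp from the start of mdt-26, and snu-66/ints-9 (124). The synthetase genes were ears-2 (with uncp-18, 298), aars-1 (with rga-1, 88.0) and nars-1 (with nduf-6, 80.0), and in each the summit was nearer the synthetase.

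The next question was where between the starts the summits lay. Starts are the annotated 5′ ends of genes throughout, and where transcription begins was not measured. The 5′ ends of a member pair were a median of 400 bp apart (quartiles 288 and 552, from 12 bp at F32D8.14/F32D8.5 to 900 bp at sqv-3/vha-1). Summits lay a median of 141 bp from the nearer end (quartiles 71 and 199) and 261 bp from the farther end (quartiles 184 and 360). Peaks upstream of one gene lay a median of 211 bp from it. Summits in each replicate were 17 bp apart at the median (upper quartile 30 bp), which sets how finely a position can be read. Of the members, 154 were nearer the minus-strand gene, 180 nearer the plus-strand gene and 1 equally far from both.

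Summits lay nearer the middle of the gap than an even spread over its positions would place them. Measured as the distance to the nearer end divided by the gap, the median position was 0.362, where 0.5 is the exact middle. Since the rule leaves only the middle part of long gaps, the 227 members with a gap of up to 500 bp are the fairer set, and there it was 0.355 (quartiles 0.209 and 0.439). Over all positions between the starts of these pairs the median was 0.25. With the replicate summits that lay between the starts it was 0.351 in replicate 1 (n = 219) and 0.358 in replicate 2 (n = 223). In weaker pooled regions outside the optimal list it was 0.330 (n = 167). Of these 227 members, 125 (55.1%) had a summit within 50 bp of the middle, against 30.9% of all positions between the starts of the same pairs. Within 50 bp of a start lay 60 (26.4%), against 30.7% of those positions. The strongest members with a summit within 5% of the gap from its middle were drr-2/set-16, ska-3/rps-12, rps-15/F36A2.9, mig-5/cct-1 and gpap-1/scpr-1.

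The distance to the nearer start had medians of 37.5, 106, 180 and 260 bp in gaps of up to 200, up to 400, up to 600 and over 600 bp. The distance from the middle had medians of 34.5, 40.8, 58.0 and 85.8 bp in the same order. Both distances are bounded by the length of the gap, and in gaps over 500 bp also by the rule, so their rise with the gap is no finding. Peak intervals had a median length of 440 bp. They reached over neither start in 120 members, over one in 133 and over both in 82. Just inside the limit of 500 bp were clic-1/srr-10 (497 bp to the farther start, signal 118), rict-1/gfm-1 (495 bp, 104) and epc-1/Y111B2A.12 (494 bp, 362). Just outside were evl-14/dcn-1 (502 bp, 79.1), ran-1/dkc-1 (502 bp, 169) and srz-97/clec-57 (505 bp, 93.6).

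In pairs with a single ribosomal protein gene, the summit was more often nearer the partner. This was so in 22 of 30 members, and 8 were nearer the ribosomal protein gene. The median distance was 292 bp to the ribosomal protein gene and 185 bp to the partner, and the summit was over 250 bp from the ribosomal protein gene in 21 and from the partner in 10. At tmem-107/rps-26 (136 in replicate 1, 205 in replicate 2, 345 pooled) it was 28 bp from tmem-107 and 429 bp from rps-26. At rps-0/rbg-3 (111, 133 and 255) it was 317 bp from rps-0 and 56 bp from rbg-3. The opposite order was seen at rpl-12/lin-54, 31 bp from rpl-12 and 362 bp from lin-54. In the strongest regions of replicate 1 alone the summit was nearer the partner in 65.5% and in those of replicate 2 in 72.4%, against 73.3% in the optimal list. Peaks upstream of one gene only also lay far out where that gene was a ribosomal protein gene, at a median of 281 bp (n = 25). The median was 206 bp for one-gene peaks at other genes (n = 788). Chaperone members, from 12 pairs with dnj-29/ndua-2 counted at both summits, were nearer the partner in 10 of 13. Proteasome members were nearer the proteasome gene in 8 of 10 and respiratory chain members nearer the listed gene in 6 of 9. The summit was nearer the partner in 6 of 10 for translation factors and 6 of 9 each for splicing and vesicle genes. It was 5 of 8 for nuclear pore and transport, 4 of 7 for polymerase II and cofactors and 3 of 8 for mitochondrial ribosomal proteins. Smaller lists are left out here.

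**Figure D4:**
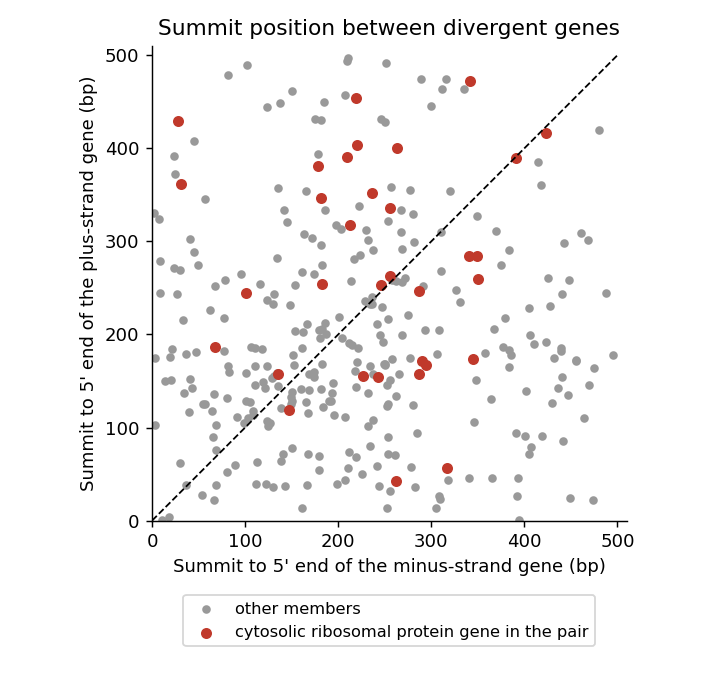
Distance from each of the 335 summits to the 5′ end of the minus-strand gene (x axis, bp) and of the plus-strand gene (y axis, bp); the dashed line marks the middle of the gap. Red points have a cytosolic ribosomal protein gene in the pair; 154 members lie nearer the minus-strand gene and 180 nearer the plus-strand gene.

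The base composition around the summits followed the orientation of both genes. Within 20 bp of the summit G and C made up 51.6% of bases to the left and 51.4% to the right. Towards the minus-strand gene the share of A rose to 41.2% at 70 bp from the summit, where T was 26.1%. Towards the plus-strand gene T rose to 44.9% at 90 bp, where A was 25.9%. At the middle of the 1332 gaps without an optimal peak the share of G and C was 33.6% and 34.0% on both sides. There A at 70 bp to the left was 34.9% and T at 90 bp to the right 33.9%. Members were centred on the summit and these gaps on their middle, so the profiles differ in the point chosen too. Peaks upstream of one gene, turned so that the gene lay to the right, had the rise of T on the gene's side (40.2% at 90 bp) but only 30.9% A at 70 bp on the other side.

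**Figure D5:**
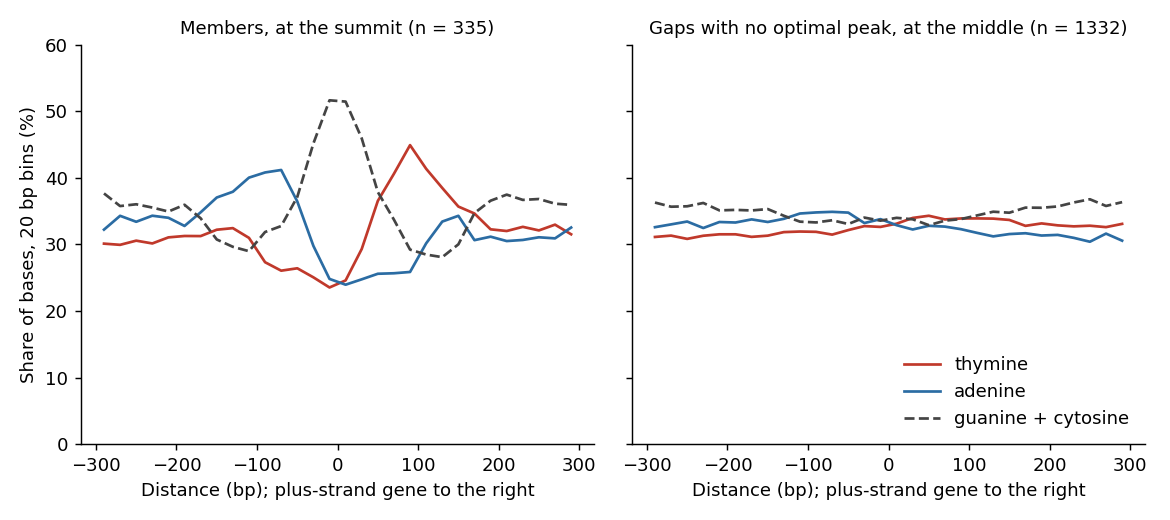
Share of thymine, adenine, and guanine plus cytosine (y axis, percent of bases in 20 bp bins) by distance from the summit of the 335 members (left) or from the middle of the 1332 gaps without an optimal peak (right), with the plus-strand gene to the right (x axis, bp). In members adenine peaks at 41.2% on the left and thymine at 44.9% on the right of a centre with 51.6% guanine plus cytosine.

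The switch from A to T was measured for each region as T minus A in the 100 bp right of the summit, less the same in the 100 bp left of it, in percentage points. Its median was 20 in members (quartiles 7 and 31), 11 in one-gene peaks, 1 in distal peaks and 3 at the middle of gaps without an optimal peak. It was above 0 in 86.3% of members, 71.2% of one-gene peaks, 50.9% of distal peaks and 56.4% of those gaps. The regions of either replicate alone gave 19. At the middle of the gaps that held a peak, in place of the summit, it was 8.5. Part of the difference between members and gaps without a peak thus went with the point chosen. Weaker pooled regions between divergent genes had a median of 12 (n = 263). Within the members it was 21 in the stronger 167 and 20 in the weaker 168.

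Runs of 8 T on the plus strand lay within 100 bp to the right of the summit in 36 members (10.7%) and to the left in 6 (1.79%). Runs of 8 A lay to the left in 23 (6.87%) and to the right in 10 (2.99%). In gaps without an optimal peak the same 4 shares were 8.18% and 5.33% for T and 7.96% and 6.68% for A. Without regard to side or strand, TTTTTTTT occurred in 21.2% of members, 13.7% of one-gene peaks, 12.2% of distal peaks and 24.9% of those gaps. The run itself was no more frequent in members than in those gaps.

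Over 200 bp around the summit, members had a median GC content of 39.3% (quartiles 34.8 and 43.8%). This was below one-gene peaks (42.3%) and distal peaks (47.3%), and above the middle of gaps without an optimal peak (32.8%). At the middle of gaps that held a peak, in place of the summit, it was 36.8%. Part of the difference from gaps without a peak thus goes with the point chosen. The weaker pooled regions between divergent genes stood between members and gaps without an optimal peak, at 34.3%. Within the members GC content was 41.3% in the stronger and 37.8% in the weaker ones. GC content can affect how well DNA is recovered and sequenced. Its part in the signal was not tested, since the control reads were not analysed here.

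Of the other sequence motifs searched on both strands in the same 200 bp, 3 differed most between members and distal peaks in percentage points. GAGAGAGA was in 4.18% of members, 8.49% of one-gene peaks, 20.03% of distal peaks and 1.58% of gaps without an optimal peak. The motif CTGCGTCT was in 7.76% of members, 17.6% of one-gene peaks, 21.8% of distal peaks and 1.88% of gaps. TATAAA was in 16.7%, 13.5%, 8.82% and 29.4%, in the same order. The GC box GGGCGG was in 13.4% of members and 5.03% of gaps, with 11.4% and 12.6% in the other peak classes. The E-box CACGTG was in 1.79% of members, 5.17% of one-gene peaks, 5.88% of distal peaks and 4.50% of gaps. TGATAA, of the kind bound by GATA factors, was in 8.66%, 9.84%, 7.31% and 20.4% in the same order, so its low share was common to all these peak classes. The E2F-type motif TTCCCGCC was in 0.896% of members, 1.85% of one-gene peaks, 1.64% of distal peaks and 0.676% of gaps. For TTTGGCGC, also of E2F type, the shares were 1.49%, 1.72%, 0.957% and 0.976%. These are matches of letters and not binding sites.

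Summits inside annotated noncoding genes or pseudogenes were no more common among members (26, 7.76%) than among one-gene peaks (8.24%), and the share was 15.4% in distal peaks. Without these summits 309 members were left, and 18.4% of pairs held one.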

How the data were processed

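RBR-2-GFP ChIP-seq peak lists from 2 replicates of 1 group were used, on ce11. Per the accompanying deposited notes, a control and the alignment of a replicate gave its list, both alignments gave the pooled list, and thresholding these by irreproducible discovery rate gave the optimal list. The deposited value is the caller's signal per region, made by the authors; the aligner, the caller and how signal is scaled are not given in the sources used here. Read depth is unknown, so no interval on a signal was computed.

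Genes came from Ensembl release 115 (WBcel235, the same assembly, 19973 nuclear protein-coding genes) and sequence from RefSeq. Python 3.11.15 with pandas 2.3.3 and numpy 2.4.6 assigned summits and measured distances and bases; the steps were checked on planted summits. Replicate values used each list's strongest 3442 regions. Gene lists were symbol prefixes. Named members were the 20 strongest, up to 3 per list, up to 20 with listed genes on both sides, the extremes of gap, middle and replicate rank, and those nearest the 500 bp limit. Members, lists and rules were chosen with earlier results of these data known. Shares per kb, the X pairs, the left and right sides of runs and shared 8-letter words were added after seeing the data. The ce10 lists were not used here. A few items that these rules pick are not reported here.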

Additional observations from a re-analysis of the deposited data

How the results depend on the processing

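No paired analysis was possible because there is 1 group and nothing to pair its replicates with. Either replicate alone gave 311 to 328 members, 18.7 to 19.5% of pairs, 4.84 to 5.07% of other starts, signal ratios of 1.10 to 1.14, 141 to 144 bp to the nearer start, 39.3 to 39.8% GC, a T minus A switch of 19 to 19 points and 65.5 to 72.4% of single ribosomal protein pairs with the summit nearer the partner. The stronger 50% of the optimal list gave 193 members, 11.6% of pairs, 2.76% of other starts, 154 bp, 41.3% GC, 21 points and 17.1% with a run of 8 T. A window of 250 bp gave 149 members, 17.0% of pairs, 3.60% of other starts, a signal ratio of 0.988, 108 bp, a relative position of 0.401, 38.3% GC, 25 points, 66.7% nearer the partner and 25.5% with the run. A window of 1000 bp gave 18.8%, 6.63%, 1.15, 159 bp, 0.331, 40.8% GC, 18.5 points and 18.5% with the run. The 5′ ends of all transcripts gave 5.81% of other starts, a ratio of 1.12 and 137 bp. Without summits in noncoding genes these were 18.4% of pairs, 4.71% of other starts, 138 bp and 38.8% GC. With 100 bp around the summit, GC was 46.5%, the switch 10 points and the run in 7.16%. The signal ratio was the one value that crossed 1, and its cause was not tested. The unknown depth limits every signal, and regions under the optimal threshold are not shown to be unbound.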

Other observations

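Some short words of sequence recurred between divergent genes and, less often, upstream of one gene. Among 8-letter words with at least 3 G or C, those whose share of members most exceeded their share of gaps without an optimal peak were picked after seeing the data, leaving out near-overlapping words. GCGAGACC was in 42 members (12.5%), 5.54% of one-gene peaks, 0.889% of distal peaks and 2.18% of gaps. The next was GCGCTCCA, in 10.7% of members, 5.90% of one-gene peaks and 1.65% of gaps. For GCAAACAC the same shares were 11.6%, 8.61% and 3.68%, so one-gene peaks came near the members. They were 9.85%, 3.57% and 2.25% for CGTAAATC, and 10.1%, 4.43% and 3.08% for AAAGGCGC. Both strands were searched in 200 bp around the summit or, in gaps without an optimal peak, around the middle. At least 1 of these 5 words lay in 140 members (41.8%), 24.7% of one-gene peaks, 6.22% of distal peaks and 11.6% of gaps, and at least 2 lay together in 10.4%, 3.20%, 0.205% and 1.13%. CGTAAATC or its complement can be read in the sequences printed for rpl-20/Y17G9B.5 and rpl-15/K11H12.8. The words are frequent in the genome, at 34.6 to 62.7 copies per Mb on the nuclear chromosomes. Members with a word had a median signal of 128 and those without one 130. Because the words were picked on these same regions, their shares are a description, and whether they belong to a repeated element, and whether that bears on how reads were placed, was not tested.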
